A study of Mus musculus with 4 samples.

Results

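The nuclear-encoded subunits of mitochondrial complex I were taken as the genes whose symbol is Nduf followed by a, b, c, s or v and a number. Assembly factors (Ndufaf) and pseudogenes were left out, and so was Ndufab1, the acyl carrier protein, whose symbol does not match. The rule found 37 of the 32285 genes in the deposited tables. It used no measured value.

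Single-cell RNA of small-intestinal epithelium from 25-week-old mice was measured in 4 libraries, 2 of each genotype. Wild type 1 and wild type 2 carried no stated mutation. TrnA mutant 1 and TrnA mutant 2 carried G5081A in TrnA, the gene for the mitochondrial alanine tRNA, at a stated load of 77% and 81%. All cells had been dissociated and sorted after staining for CD45, CD31, TER-119, CD326 and DAPI. Acute colitis appears in the title of the series, whereas the sample labels mention no such treatment. Wild type 1 and mutant 1 form set A, with no sex stated, and wild type 2 and mutant 2 form set B, stated to be male. The sets also differ in the version of Cell Ranger that counted them, and what the sets add to a difference between libraries cannot be told apart from these features. The labels do not say whether each library came from its own animal, so p-values rest on the spread between these libraries, which may be technical. Where the library was a block in the fit, that spread is how far the difference between classes varied from library to library. Values of the 4 libraries are given below in the order wild type 1, mutant 1, wild type 2, mutant 2.

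Complex I takes electrons from NADH, passes them to ubiquinone and pumps protons across the inner mitochondrial membrane. Its NADH-oxidising module (N module) and quinone-binding module (Q module) are built wholly from nuclear genes, while the membrane arm joins nuclear accessory subunits to the mtDNA-encoded ND proteins. Those ND proteins are made on mitochondrial ribosomes, which need the alanine tRNA. In the intestine, absorptive enterocytes of the villus are known for heavy use of oxidative metabolism, and crypt stem cells renew all lineages.

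The 37 genes are spread over 15 chromosomes, with Ndufa1 and Ndufb11 on X and none on the mitochondrial chromosome (GENCODE vM21, GRCm38). Promoters of 250 bases before to 50 bases after the annotated start (RefSeq, GRCm38.p6) were found for 32 members, which have 34 promoters. The other 5 had no entry. The sequences below are shown because several promoters share a short sequence. Levels of members with and without such a sequence were not compared. On either strand, the pattern GCGCA, then any base, then GCGC, which nuclear respiratory factor 1 binds, occurred in the promoters of 7 of 32 members (21.9%), against 4.60% of all 32851 promoters. It matched in Ndufa5, Ndufa6, Ndufa8, Ndufa11, Ndufb4, Ndufs5 and Ndufs6. The pattern reads nearly alike on both strands, so a palindromic match counts once. Capitals mark it here, in a stretch of 80 bases read 5′ to 3′ on the gene's own strand, before the RefSeq start. GENCODE starts Ndufa8 (36049406) and Ndufs6 (73328542) farther upstream, so their stretches lie mostly inside the gene in that annotation.
Ndufa11 (chr17:56717667-56717746, plus strand): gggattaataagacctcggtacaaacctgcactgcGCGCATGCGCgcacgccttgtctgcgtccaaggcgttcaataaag
Ndufs5 (chr4:123718240-123718319, minus strand): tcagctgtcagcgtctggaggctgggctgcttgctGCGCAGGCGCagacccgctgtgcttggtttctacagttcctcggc
Ndufs6 (chr13:73328483-73328562, minus strand): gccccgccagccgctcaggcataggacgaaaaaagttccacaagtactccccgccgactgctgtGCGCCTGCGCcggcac
Ndufa8 (chr2:36049339-36049418, minus strand): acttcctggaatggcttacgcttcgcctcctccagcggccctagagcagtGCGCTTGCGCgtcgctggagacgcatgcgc

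A second sequence, AAGATGGCG, which the factor YY1 binds, occurred on either strand in the promoters of 5 of 32 members (15.6%), against 1.4% of all promoters. It matched in Ndufa9, Ndufc1, Ndufs4, Ndufs6 and Ndufs7, each time just after the RefSeq start and on the gene's own strand. In Ndufs6 it lay apart from the other pattern, at base 34 after the start. Capitals mark it below.
Ndufs7 (chr10:80249463-80249492, plus strand): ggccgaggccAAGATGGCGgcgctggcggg
Ndufa9 (chr6:126849096-126849125, minus strand): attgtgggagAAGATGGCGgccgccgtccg
Ndufs4 (chr13:114388045-114388074, minus strand): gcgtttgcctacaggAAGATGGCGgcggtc
Patterns for an oestrogen-related receptor (TNAAGGTCA) and for ETS factors (CCGGAAGT) each matched 1 member, Ndufb4 and Ndufs3, against 1.28% and 3.89% of all promoters. In all, 15 patterns were counted and these 4 were chosen for report after the counts were seen. A match describes letters in a window and was not tested as a binding site.

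The libraries held 5974 to 13805 barcodes and 99772712 to 127796409 unique molecular identifiers (UMIs, counts of captured mRNA molecules). After filters, 4258, 10100, 7273 and 7605 epithelial cells remained, and wild type 1 stood apart with a median of 20653.5 UMIs per cell against 9485 to 10747 in the others. Between 26 and 60 barcodes were shared by any pair of libraries, at most 0.484% of the smaller one. In the epithelial cells the epithelial marker Epcam, which encodes CD326, had 2313 to 3363 CPM (UMIs of a gene scaled to a fixed total of UMIs), the leukocyte marker Ptprc 0.228 to 1.61 CPM and the endothelial marker Pecam1 0.659 to 1.46 CPM. Clusters were built without the complex I genes, other respiratory chain genes or mitochondrial genes, and were named from markers as stem-like, cycling-like, enterocyte-like, goblet-like, Paneth-like, tuft-like and enteroendocrine-like cells. Of 23 clusters, 5 matched no marker list well enough and stayed without a name. Over the 4 libraries a class held from 39 (tuft-like cells of wild type 1) to 3184 cells (enterocyte-like cells of mutant 2).

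Among epithelial classes the subunit mRNAs fell into several patterns relative to stem-like cells. They were higher almost throughout in cycling-like and enterocyte-like cells and lower throughout in enteroendocrine-like cells. They were mostly lower in tuft-like cells, and mixed in goblet-like and Paneth-like cells. Each class was set against stem-like cells in one edgeR quasi-likelihood fit of summed UMIs with the library as a block, and a gene was called at a Benjamini-Hochberg adjusted p under 0.05 over all 15840 genes tested. Of the 37 members, 36 passed the filter on low counts. Ndufa4l2, the paralogue of Ndufa4 known from the response to low oxygen, did not: it had 1, 2, 2 and 2 UMIs in all epithelial cells of the 4 libraries. Log2 ratios are on the TMM scale, which corrects for a few very abundant mRNAs, so they can differ from the ratio of the CPM values beside them.

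In cycling-like cells 35 of 36 members were called higher and none lower, where 25.4% of all genes tested were called higher and 22.4% lower. The median log2 ratio of the members was 0.53, against -0.03 over all genes. In enterocyte-like cells 35 were called higher and none lower, where 37% of all genes were called higher and 39.8% lower, with a median of 0.65 against -0.06. In enteroendocrine-like cells none was called higher and 36 lower, where 31.6% and 33.6% of all genes were, with a median of -0.97 against -0.04. Goblet-like cells had 4 higher and 16 lower (31.2% and 38% of all genes), with a median of -0.12 against -0.11. Paneth-like cells had 5 higher and 11 lower (27.1% and 31.7%), with a median of -0.10 against -0.11. Tuft-like cells had 1 higher and 23 lower (16.8% and 25.5%), with a median of -0.32 against -0.16.

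**Figure D1:**
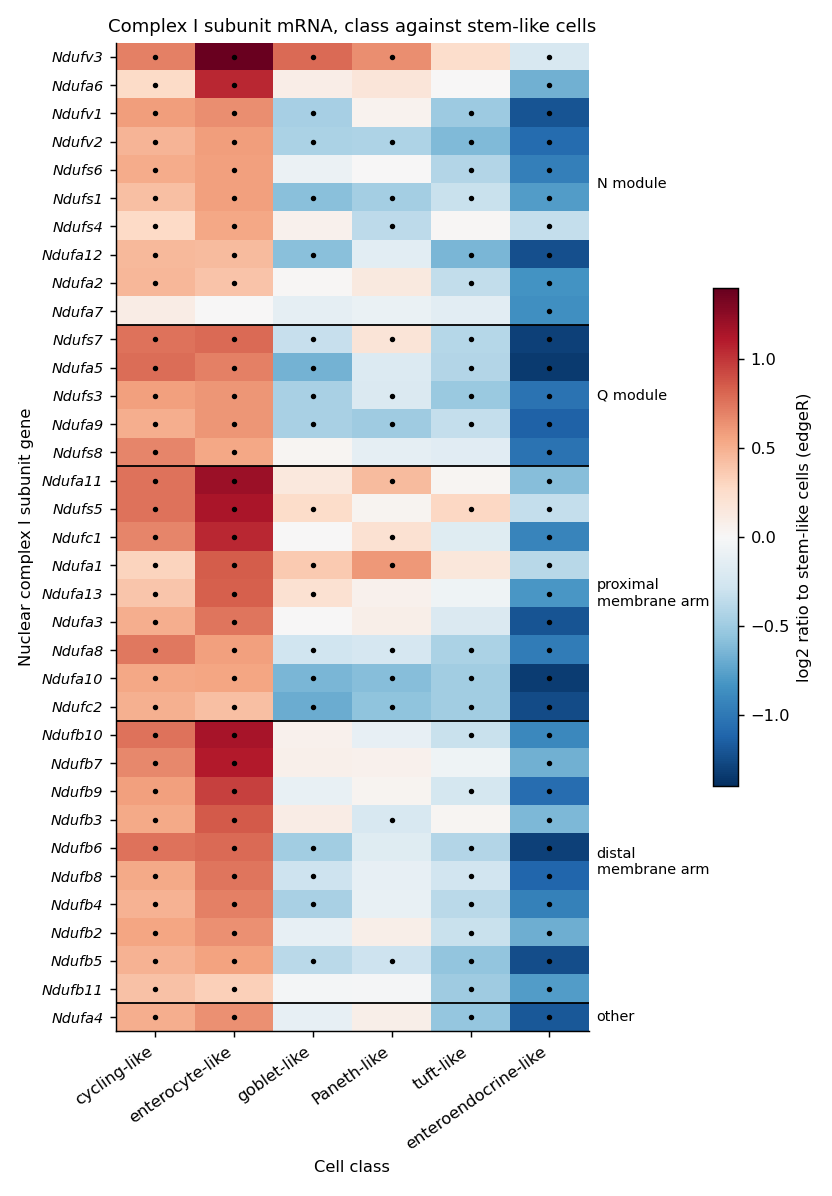
Log2 ratio of 35 of the 36 tested subunit mRNAs (rows, grouped by module; dots mark called ratios) to stem-like cells in 6 cell classes (columns), from the edgeR fit over 4 libraries. The cycling-like and enterocyte-like columns are higher nearly throughout (medians over all 36 of 0.53 and 0.65), and the enteroendocrine-like column is lower throughout (median -0.97). The tuft-like column is mostly lower (median -0.32), and the goblet-like and Paneth-like columns mix both directions.

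The libraries shared most signs in 3 classes. In cycling-like cells 36 members were higher than in stem-like cells of the same library in all 4 libraries, in enterocyte-like cells 35 were, and in enteroendocrine-like cells 36 were lower in all 4. The member medians within the libraries were 0.49, 0.40, 0.56 and 0.65 in cycling-like cells and 0.58, 0.64, 0.66 and 0.76 in enterocyte-like cells. They were -0.96, -1.03, -1.02 and -0.94 in enteroendocrine-like cells. Medians of all genes within the libraries lay from -0.02 to 0.01 in cycling-like, -0.04 to -0.02 in enterocyte-like and -0.08 to -0.06 in enteroendocrine-like cells. In the other classes fewer members had the same sign in all 4 libraries: 7 higher and 18 lower in goblet-like, 4 and 16 in Paneth-like, and 0 and 22 in tuft-like cells. The share of all genes with the same sign in all 4 libraries was not counted, so these counts stand without a background. The counts of members called lower leaned on single libraries in 2 classes: the 23 of tuft-like cells dropped to 13 when wild type 1 was left out, to 11 when it was wild type 2 and to 15 when it was mutant 1, and Paneth-like cells went from 11 to 7 on leaving out either wild type library or mutant 2. The cycling-like class was made of different clusters in the 2 sets. Its cluster led by Aurkb and Cdk1 held 456, 1636, 112 and 103 cells of the libraries, and its cluster led by histone genes 8, 65, 812 and 871. The values of the class therefore join different cells in set A and set B. Without mutant 1, which gave 70.9% of the first cluster, 34 members were called higher. Goblet-like medians ran from -0.20 to -0.03, Paneth-like medians from -0.20 to 0.01 and tuft-like medians from -0.52 to -0.09. Those of all genes ran from -0.10 to -0.06, -0.33 to -0.04 and -0.27 to -0.17.

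The counts changed with scaling and clustering. Without TMM, scaling to library size alone moved the median of all genes to -0.44 in enterocyte-like, -0.18 in cycling-like, -0.37 in goblet-like, -1.94 in Paneth-like, 0.08 in tuft-like and 0.26 in enteroendocrine-like cells, and it left 22 enterocyte-like members called higher and 1 lower (26.6% and 49.7% of all genes). It called 31 members higher in cycling-like cells (15.4% of all genes) and 32 lower in enteroendocrine-like cells (23.3%). In Paneth-like cells it called 36 lower and none higher (80.5% and 5.53%), and in goblet-like cells 25 lower and 1 higher (47% and 23%). In tuft-like cells it called 6 lower and 4 higher (15.7% and 23.6%), against 23 lower with TMM. The mostly lower pattern of tuft-like cells was thus no longer seen in the calls. When cells were clustered on values centred within each library, 4 members were called higher in cycling-like cells, where 11.4% of all genes were, so that the pattern of that class was no longer seen in the calls. In enterocyte-like cells 19 were called higher (37.5% of all genes), none was called lower in either class, and 36 were called lower in enteroendocrine-like cells (30.7%).

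The N module holds the site where NADH is oxidised. Its gene Ndufv3, an accessory subunit of the flavoprotein part (chr17:31520115-31531331, plus strand), had the highest log2 ratio to stem-like cells of all members in enterocyte-like cells. In stem-like cells it had 98.5, 92.6, 150 and 134 CPM, and in enterocyte-like cells 187, 202, 274 and 287 CPM. Every enterocyte-like value lay above the highest stem-like value, with a log2 ratio of 1.39 (SE 0.09, edgeR adjusted p = 6.1e-15). Ndufv3 was also called higher in goblet-like (0.79, SE 0.09), cycling-like (0.70, SE 0.09) and Paneth-like cells (0.65, SE 0.09), although its plain CPM in Paneth-like cells lay below every stem-like value, at 37.6 to 62.5. In enteroendocrine-like cells it had the ratio nearest to 0 of all members, with a log2 ratio of -0.22 (SE 0.10, edgeR adjusted p = 0.0466) and 100, 108, 133 and 162 CPM. In plain CPM it was higher than in stem-like cells in 3 of 4 libraries, so its direction there depends on the scaling.

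The catalytic core of the N module rose in enterocyte-like and cycling-like cells and fell in other classes. Ndufv1, which binds NADH and the flavin, had log2 ratios of 0.66 in enterocyte-like and 0.58 in cycling-like cells, and -0.46 in goblet-like, -0.51 in tuft-like and -1.21 in enteroendocrine-like cells, all 5 called. Its iron-sulphur partners Ndufv2 and Ndufs1 showed the same directions and were also called lower in Paneth-like cells, at -0.43 and -0.48. Ndufs6, a zinc-binding subunit added late in assembly, was called higher in cycling-like (0.52) and enterocyte-like cells (0.57) and lower in tuft-like (-0.41) and enteroendocrine-like cells (-0.96). Ndufa6, which docks the acyl carrier protein, had a ratio of 1.05 in enterocyte-like cells against 0.27 in cycling-like cells, both called. The difference between these classes was not tested.

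Ndufa7 and Ndufs4 departed from the rest of the N module in different classes. Ndufa7 (chr17:33824572-33838317, plus strand), an accessory subunit, had 215, 213, 331 and 310 CPM in stem-like cells and 161, 177, 250 and 228 CPM in enterocyte-like cells. Within each library the enterocyte-like CPM was the lower one, while on the TMM scale the log2 ratio was 0.00 (SE 0.08, edgeR adjusted p = 0.995), so its direction depends on the scaling. It was the only tested member not called higher in enterocyte-like cells, and also the only one not called in cycling-like cells (0.10, SE 0.08, edgeR adjusted p = 0.296). Ndufs4, an accessory subunit whose loss is known to cause Leigh syndrome, had 199, 175, 176 and 176 CPM in stem-like cells and 178, 172, 175 and 189 CPM in enteroendocrine-like cells. These ranges overlapped, and the TMM-scaled log2 ratio was -0.33 (SE 0.08, edgeR adjusted p = 0.000374).

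The Q module carries electrons over its iron-sulphur clusters to the quinone site, and all 6 of its genes were called higher in cycling-like and enterocyte-like cells and lower in enteroendocrine-like cells. Its median of -1.18 in enteroendocrine-like cells was the lowest of the 4 modules, next to -0.85 in the N module and -0.93 in both parts of the membrane arm. In goblet-like cells 5 of 6 were called lower and none higher, with a median of -0.45.

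Ndufa5, an accessory subunit of the Q module, stood at an end of the range in 2 classes. It had 112, 134, 192.5 and 166 CPM in stem-like cells and 61.9, 72.9, 70.8 and 82.4 CPM in enteroendocrine-like cells, which did not overlap. Its log2 ratios were 0.78 in cycling-like cells (SE 0.09), the highest of all members there, and -1.34 in enteroendocrine-like cells (SE 0.11), the lowest of all members there. The iron-sulphur subunits Ndufs7 and Ndufs8 had 0.76 and 0.68 in cycling-like cells and -1.30 and -1.04 in enteroendocrine-like cells, all called. In goblet-like cells Ndufs7 was called at -0.32, while Ndufs8 had 0.03 (SE 0.08) and was not called. Ndufs3 and Ndufa9 followed the module in all of the classes, each called higher in 2 and lower in 4.

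The proximal membrane arm holds accessory subunits next to the Q module. All 9 of its genes were called higher in cycling-like and enterocyte-like cells, with medians of 0.55 and 0.83, and all 9 lower in enteroendocrine-like cells. Ndufa11 (chr17:56717767-56722141, plus strand), whose promoter is printed above, had 146, 142, 184 and 179 CPM in stem-like cells and 237, 244, 326 and 348 CPM in enterocyte-like cells. The groups did not overlap, and the log2 ratio was 1.20 (SE 0.09, edgeR adjusted p = 1.28e-12). Ndufs5 (chr4:123712710-123718202, minus strand), a cysteine-rich subunit on the intermembrane side, had 114, 124, 160 and 145 CPM in stem-like cells and 188, 202, 273 and 254 CPM in enterocyte-like cells. It also rose without overlap, by a log2 ratio of 1.14 (SE 0.09), and was the single member called higher in tuft-like cells, at 0.29 (SE 0.10, edgeR adjusted p = 0.0196).

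In secretory classes the proximal arm split. In goblet-like cells Ndufa1 (0.37), Ndufs5 (0.25) and Ndufa13 (0.22) were called higher, whereas Ndufc2 (-0.70), Ndufa10 (-0.64) and Ndufa8 (-0.28) were called lower. In Paneth-like cells Ndufa1 (0.60), Ndufa11 (0.44) and Ndufc1 (0.22) were called higher, whereas Ndufa10 (-0.59), Ndufc2 (-0.57) and Ndufa8 (-0.23) were called lower. The higher calls rest on TMM scaling: with library size alone 1 member was called higher in goblet-like and none in Paneth-like cells, where Ndufa1 had 38.4 to 52.4 CPM. Ndufa1, an X-linked subunit needed to assemble the complex, had 86.3, 86.2, 128 and 114 CPM in stem-like and 97.5, 97.0, 125 and 121 CPM in goblet-like cells. These values overlapped, and set B was above set A in both classes. Ndufa10, a subunit with a kinase-like fold, had 179, 159.5, 171 and 166 CPM in stem-like cells and 99.0, 86.1, 86.3 and 89.7 CPM in goblet-like cells, without overlap.

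The distal membrane arm consists of Ndufb subunits around the far proton pumps. All 10 genes were called higher in cycling-like and enterocyte-like cells and lower in enteroendocrine-like cells, with medians of 0.54, 0.78 and -0.93. Ndufb10 (chr17:24722060-24724478, minus strand), a cysteine-rich subunit, had 206, 199, 214 and 205 CPM in stem-like cells, 334, 357, 352.5 and 360 CPM in enterocyte-like cells and 135, 125, 149 and 136 CPM in enteroendocrine-like cells. The 3 classes did not overlap for this gene, with log2 ratios of 1.15 (SE 0.08) and -0.91 (SE 0.09). In enterocyte-like cells the other members ran from Ndufb11, an X-linked subunit, at 0.33 to Ndufb7 at 1.11, with Ndufb9, which like Ndufa6 belongs to the LYR proteins that bind acyl carrier protein, at 0.96. In tuft-like cells 8 of 10 were called lower, all but Ndufb3 (0.03) and Ndufb7 (-0.06). In goblet-like cells Ndufb4, Ndufb5, Ndufb6 and Ndufb8 were called lower, from -0.48 to -0.29, and none higher.

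Ndufa4 (chr6:11900292-11907497, minus strand) keeps a complex I name but is now placed in cytochrome c oxidase, complex IV. It had 1170, 1553, 1398 and 1463 CPM in stem-like cells and 649, 861, 758 and 770 CPM in enteroendocrine-like cells. The classes did not overlap, with a log2 ratio of -1.18 (SE 0.08, edgeR adjusted p = 2.47e-13). It was called higher in cycling-like (0.51) and enterocyte-like cells (0.64) and lower in tuft-like cells (-0.55), as were most members of the complex itself.

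Summed over all 37 genes, the subunits made up 8277, 8767, 9406 and 9221 CPM in stem-like cells and 10716, 10666, 12408 and 12623 CPM in cycling-like cells. In enterocyte-like cells they made up 9885, 11226, 11566 and 11772 CPM, in goblet-like cells 6144, 6491, 6611 and 7456 CPM and in enteroendocrine-like cells 5255, 5546, 5645 and 6075 CPM. Goblet-like and enteroendocrine-like sums lay below every stem-like sum, and cycling-like and enterocyte-like sums lay above every one. Tuft-like cells had 6993, 8275, 8592 and 9847 CPM, which overlapped stem-like cells. Paneth-like cells had only 2078, 3057, 2437 and 2149 CPM, and there defensin mRNAs took 57.8%, 54.9%, 64.4% and 67.3% of all UMIs. With mitochondrial and defensin UMIs left out of the total, the Paneth-like sums were 5065, 7062, 7274 and 6884 CPM of the remaining UMIs.

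The balance between nuclear and mtDNA-encoded subunit mRNAs differed between classes as well. For each UMI of the 7 mt-Nd mRNAs, which encode the ND proteins, stem-like cells had 0.677, 0.645, 0.921 and 0.907 UMIs of nuclear subunits. Cycling-like cells had 0.951, 0.875, 1.23 and 1.27, above stem-like cells of the same library in every case. Enterocyte-like cells had 0.650, 0.694, 0.595 and 0.579, below stem-like cells in 3 of 4 libraries. Goblet-like ratios ran from 0.890 to 1.03, Paneth-like from 0.596 to 0.819, tuft-like from 0.763 to 1.07 and enteroendocrine-like from 0.691 to 0.837.

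**Figure D2:**
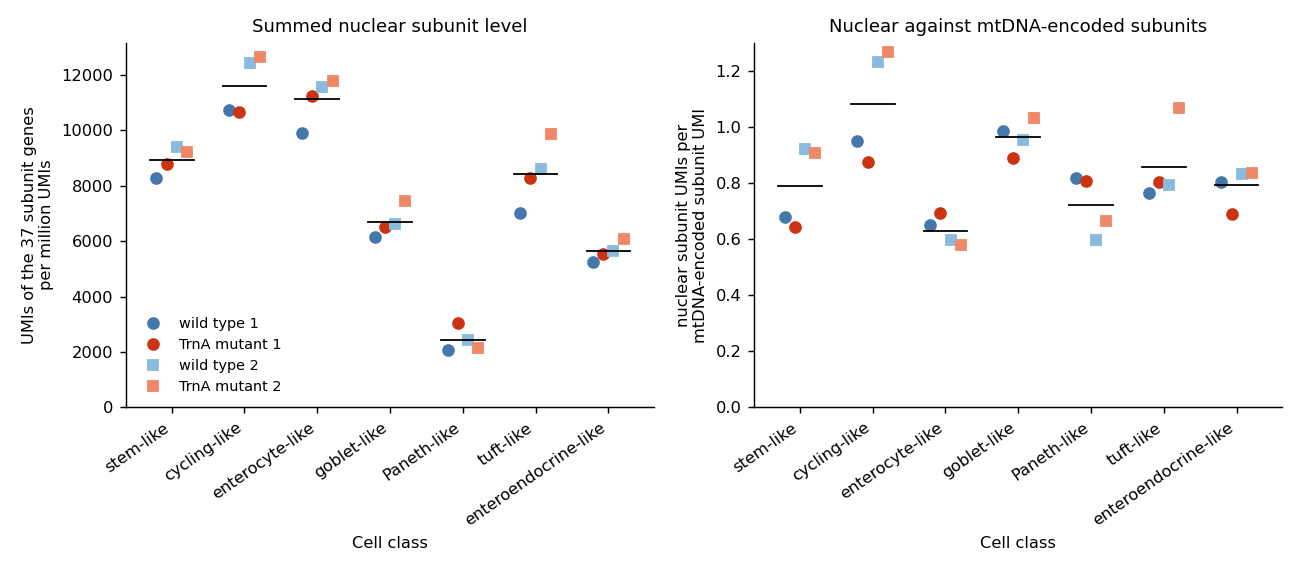
Left, summed level of the 37 subunit genes in CPM, and right, nuclear subunit UMIs per UMI of the mtDNA-encoded subunits, for each library (points) and class, with black lines at the mean of 4 libraries. Cycling-like cells have the highest mean in both panels, and Paneth-like cells lowest in the left panel, at 2078 to 3057 CPM.

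Other genes of the pathway did not all follow the subunits. The 7 mt-Nd mRNAs were called higher in enterocyte-like cells (7 of 7, median 1.00) and lower in goblet-like (7 of 7, -0.55), tuft-like (6 of 7, -0.44) and enteroendocrine-like cells (7 of 7, -1.0). In cycling-like cells, where 35 subunits were called higher, no mt-Nd mRNA was called in either direction, with a median of 0.03 and a range of -0.30 (mt-Nd6) to 0.16 (mt-Nd1). Of the 19 assembly factors, which build the complex but do not stay in it, 5 were called higher and 11 lower in enterocyte-like cells, where 37% and 39.8% of all genes were. Their median was -0.42, against 0.65 for the subunits. Nubpl, which delivers iron-sulphur clusters to complex I, was called lower at -1.27 (SE 0.11), and so were Ndufaf4 (-0.58), Ndufaf7 (-0.55) and Tmem70 (-0.53).

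In cycling-like cells 14 assembly factors were called higher and none lower (median 0.30), led by Ndufaf3 at 0.83 and Ndufaf8 at 0.64. In enteroendocrine-like cells none was called higher and 16 lower (median -1.01), led by Ndufaf4 at -1.81 and Ndufaf2 at -1.51. In goblet-like cells 14 were called lower and 2 higher (median -0.48), in Paneth-like cells 16 lower and none higher (median -0.64), and in tuft-like cells 10 lower and 2 higher (median -0.61). The tuft-like exceptions included Ndufaf3, at 1.39. The gap between assembly factors and subunits was not tested.

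**Figure D3:**
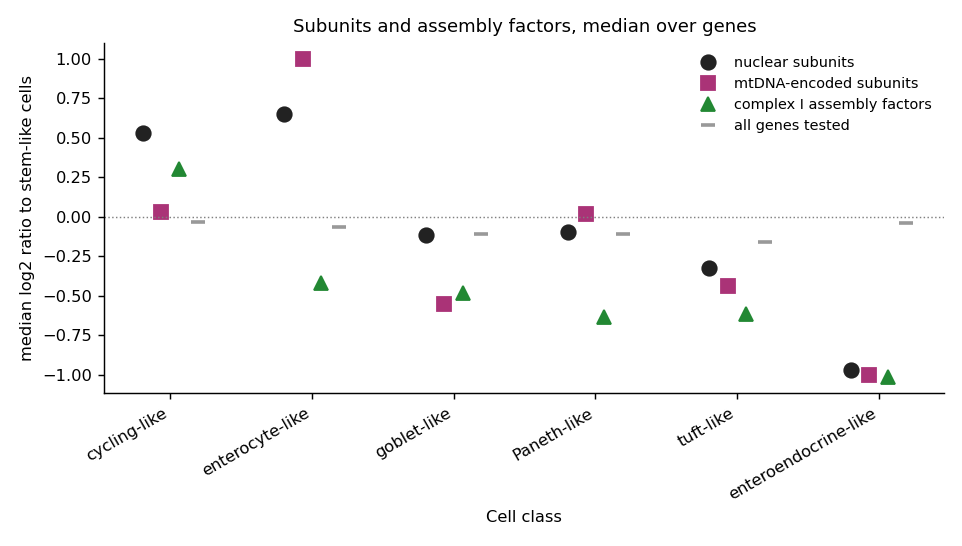
Median log2 ratio to stem-like cells (vertical axis) of the nuclear subunits, the mtDNA-encoded subunits, the assembly factors and all genes tested, in 6 cell classes. In enterocyte-like cells the subunits (0.65) and mt-Nd mRNAs (1.00) lie above 0 and the assembly factors (-0.42) below, and in cycling-like cells the mt-Nd mRNAs stay near 0 (0.03).

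Subunits of the other respiratory complexes were mostly called in the same direction as those of complex I in cycling-like, enterocyte-like and enteroendocrine-like cells. In enterocyte-like cells complexes II, III, IV and V had 0.88, 0.92, 0.88 and 0.77, with 4 of 4, 9 of 9, 11 of 12 and 17 of 18 genes called higher. In cycling-like cells they had 0.58, 0.62, 0.54 and 0.54, with 4 of 4, 9 of 9, 11 of 12 and 18 of 18 called higher (25.4% of all genes). In enteroendocrine-like cells they had -1.29, -1.07, -1.05 and -1.04, with 4 of 4, 9 of 9, 11 of 12 and 18 of 18 called lower. In tuft-like cells their medians were -0.57, -0.56, -0.21 and -0.42, next to -0.32 for complex I. Genes of other routes that feed electrons to quinone or move NADH rose in enterocyte-like cells as well, with 9 of 11 called higher and 2 lower (median 1.33). Among them were both glycerol phosphate dehydrogenases, Gpd1 (2.52) and Gpd2 (2.30), and both malate dehydrogenases, Mdh2 (1.85) and Mdh1 (1.75).

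The enterocyte-like class hid a wide spread between its clusters, given here as a description with cluster medians averaged over 4 libraries. On a scaling over clusters, the median log2 ratio of the subunits to stem-like cells was 1.29 ± 0.12 (SD, n = 4) in cluster 13 (led by Reg1, Gsta1 and Reg3a), 1.02 ± 0.13 in cluster 14 (Fabp1, Leap2, Fabp2), 0.98 ± 0.10 in cluster 10 and 0.56 ± 0.13 in cluster 20 (Fabp6, Fgf15). It was -1.25 ± 0.30 in cluster 8 (Abi3bp, Slc10a2), -1.02 ± 0.24 in cluster 16 (Slc5a12, Lct) and -1.46 ± 0.44 in cluster 17 (Nt5e, Slc28a2, Ada). All genes had medians of -0.35, -0.19 and -0.73 in clusters 8, 16 and 17, and -0.13 to 0.02 in clusters 10, 13, 14 and 20. The mt-Nd mRNAs had -0.00, 2.19 and 1.60 in clusters 8, 16 and 17, and 0.47 to 1.35 in clusters 10, 13, 14 and 20. Clusters 8, 16 and 17 had median UMIs per cell of 0.24, 0.22 and 0.21 of their own library's median, and the others 0.49 to 1.49.

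The low-UMI clusters made up 67.4%, 47.2%, 63.5% and 58.0% of the enterocyte-like cells of the libraries but only 24.1%, 15.2%, 24.5% and 24.4% of their UMIs. Summed subunit levels were 2531, 3791, 2161 and 2816 CPM in them and 12214, 12562, 14610 and 14659 CPM in the other enterocyte-like clusters. Mitochondrial UMIs took 10.5%, 11%, 17.4% and 15.1% of the total in the low-UMI clusters and 6.37% to 7.64% in the others. The part of cell depth and RNA quality in this gap was not tested. Without these clusters, an alternative added after the data were seen, 36 of 36 subunits were called higher in enterocyte-like cells and the median rose from 0.65 to 0.94.

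Clusters of other classes differed too. The stem-like cluster led by Olfm4 had a subunit median of 0.26 ± 0.06 (SD, n = 4) and the one led by Lgr5, the marker of crypt base stem cells, -0.29 ± 0.05. An unnamed cluster led by Gsdmc4, Gsdmc2 and Car4 had 0.99 ± 0.09, and an unnamed one led by the mitotic genes Cdc20 and Ccnb2 had 0.72 ± 0.15. An unnamed cluster led by Dll1 and Kit had 0.03 ± 0.10. Goblet-like cells split into a cluster at 0.07 ± 0.07 (led by Agr2) and one at -1.03 ± 0.10 (led by Ido1 and Fcgbp), whose UMIs per cell were 0.37 of their library's median. All genes had medians of -0.01 and -0.14 in these goblet-like clusters.

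**Figure D4:**
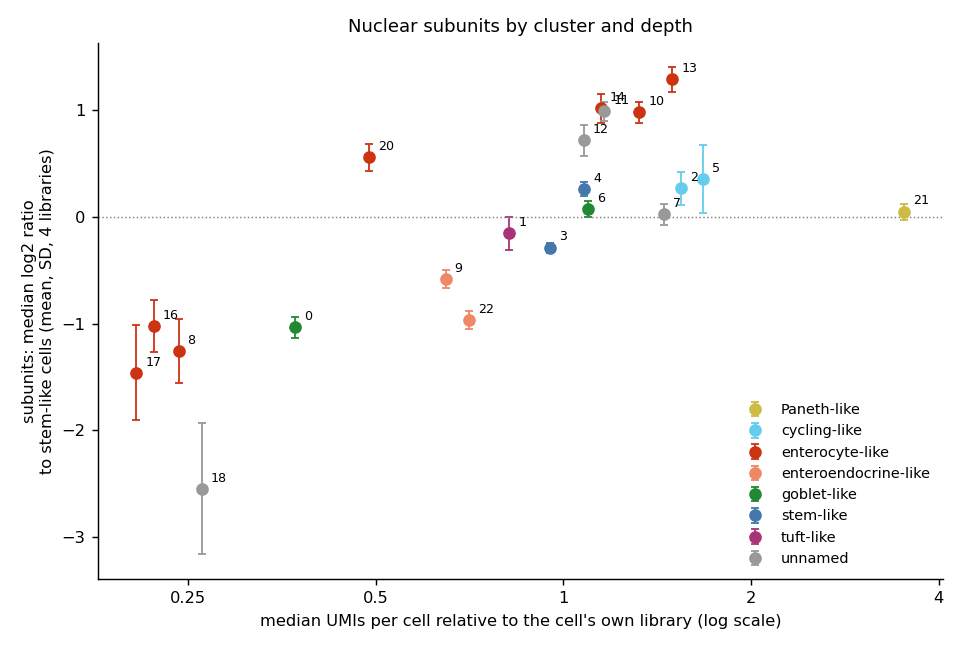
Median log2 ratio of the subunits to stem-like cells (vertical axis, mean and SD of 4 libraries) against the median UMIs per cell of each cluster relative to the cell's own library (horizontal log axis), coloured by class and numbered by cluster. Enterocyte-like clusters 10, 13, 14 and 20 lie above 0 and clusters 8, 16 and 17, at 0.21 to 0.24 of the library median, below -1.

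The genotypes were compared within each class on summed UMIs per library, 2 mutant against 2 wild type libraries, in edgeR without a term for the set. No subunit was called in any of 7 groups of cells (all epithelial, crypt, enterocyte-like, goblet-like, Paneth-like, tuft-like and enteroendocrine-like cells, where crypt cells are the stem-like and cycling-like cells together), and 0% of all genes were called. At an unadjusted p under 0.05 the same fit held 0 subunits in each group. On simulated data of all epithelial cells this fit called no gene, although some had been changed 2-fold and others 4-fold. Its lack of calls therefore cannot show likeness. DESeq2 called 0 subunits too, and so did edgeR with the set as a term, which called 0.126%, 0.37%, 0.0312%, 0.312%, 0.00919%, 0.0118% and 0.293% of all genes in the same order of groups. With the set term, subunits at an unadjusted p under 0.05 numbered 2, 1, 0, 1, 0, 5 and 0.

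The width of the intervals shows how closely 2 libraries against 2 place a log2 ratio, and not what the fit can call. In all epithelial cells the SE of a subunit's log2 ratio had a median of 0.22, and the upper ends of the 95% intervals ran from 0.42 (Ndufs1) to 1.11. Differences of this size were not detectable here, and larger ones could go uncalled too, since simulated 4-fold changes were not called. The lack of calls does not show that the genotypes are alike. The members' log2 ratios of mutant to wild type ran from -0.00 (Ndufa3) to 0.37 (Ndufa4) in all epithelial cells, with a median of 0.11 against -0.00 over all genes. The medians were 0.06 in crypt, 0.11 in enterocyte-like, 0.08 in goblet-like, 0.13 in Paneth-like, 0.28 in tuft-like and 0.07 in enteroendocrine-like cells, where those of all genes lay from -0.01 to 0.01.

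Ndufa4 gave the largest ratio in all epithelial cells, with 1305, 1729, 1424 and 1547 CPM. Both mutant libraries lay above both wild type libraries, but the gap between wild type 2 and mutant 2 was small next to that within set A. Its log2 ratio was 0.37 (SE 0.21, 95% interval -0.15 to 0.89, edgeR adjusted p = 1.00 over all genes). With the set as a term it was 0.38 (SE 0.15, edgeR adjusted p = 0.79). Ndufa13, also known as GRIM-19 and needed for assembly of the membrane arm, had 264, 317, 319 and 346 CPM and a log2 ratio of 0.30 (SE 0.23). The libraries overlapped, since mutant 1 lay below wild type 2.

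Tuft-like cells, the chemosensory cells of the epithelium, had the highest member median (0.28), from 39, 76, 97 and 119 cells. That median fell to 0.12 without wild type 1 and to 0.062 without mutant 2, and was 0.43 without mutant 1 and 0.45 without wild type 2. Ndufa4 had 897, 1382, 1035 and 1243 CPM there, with a log2 ratio of 0.49 (SE 0.29, 95% interval -0.21 to 1.20). Ndufb6, a distal arm subunit, had 119, 161, 114 and 151 CPM, with a log2 ratio of 0.48 (SE 0.26). For both genes the mutant libraries lay above the wild type libraries, and neither was called (edgeR adjusted p = 1.00). In enteroendocrine-like cells the ends were Ndufv2 at -0.30 (SE 0.21), with 136, 97.2, 102 and 98.3 CPM, and Ndufv1 at 0.36 (SE 0.21), with 65.2, 79.6, 53.7 and 74.0 CPM. The Ndufv1 libraries did not overlap between genotypes, and the lone high Ndufv2 value was that of wild type 1.

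Counted by direction, the subunits leaned upward in the mutants on the TMM scale. In all epithelial cells 25 of 36 were higher in the mutant of both sets and none was lower in both, where 24.6% of all genes were higher in both and 25.7% lower in both. This group pools classes whose shares differed between libraries. Enterocyte-like cells made up 27.2%, 16.6%, 41.8% and 41.9% of its cells, and defensins 2.62%, 4.61%, 8.78% and 10.7% of its UMIs. The part of this make-up in the pooled lean was not tested. In tuft-like cells 25 were higher in both sets and 2 lower (27.1% and 25.9% of all genes), and in enterocyte-like cells 20 and 1 (25.5% and 26.4%). Crypt cells had 15 and 2 (25.7% and 26%), goblet-like cells 15 and 2 (26% and 25.9%), Paneth-like cells 17 and 1 (24.5% and 22.6%) and enteroendocrine-like cells 16 and 4 (25.1% and 26.2%). Other respiratory complexes leaned the same way. In all epithelial cells 2 of 4, 4 of 9, 10 of 12 and 9 of 18 genes of complexes II, III, IV and V were higher in both sets. In tuft-like cells 4 of 4, 6 of 9, 9 of 11 and 13 of 18 were, and in both groups none was lower in both sets. The lean of the subunits depended on the scaling. In plain CPM, counted after the data were seen, 8 subunits were higher in the mutant of both sets and 5 lower in all epithelial cells, and 8 and 11 in crypt cells. In tuft-like cells plain CPM still gave 21 and 2. The share of all genes was not counted this way in plain CPM, and the shares above are those of the TMM scale. The lean depended on single libraries as well. Without wild type 1 the member median was -0.021 in crypt, 0.0077 in enterocyte-like and -0.0062 in enteroendocrine-like cells. Without mutant 2 it was -0.012 in all epithelial, -0.068 in crypt, -0.082 in enterocyte-like and -0.057 in goblet-like cells. In enterocyte-like cells the member median of 0.11 also moved with the clusters. It was 0.038 without the low-UMI clusters and 0.24 with clustering on values centred within libraries.

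**Figure D5:**
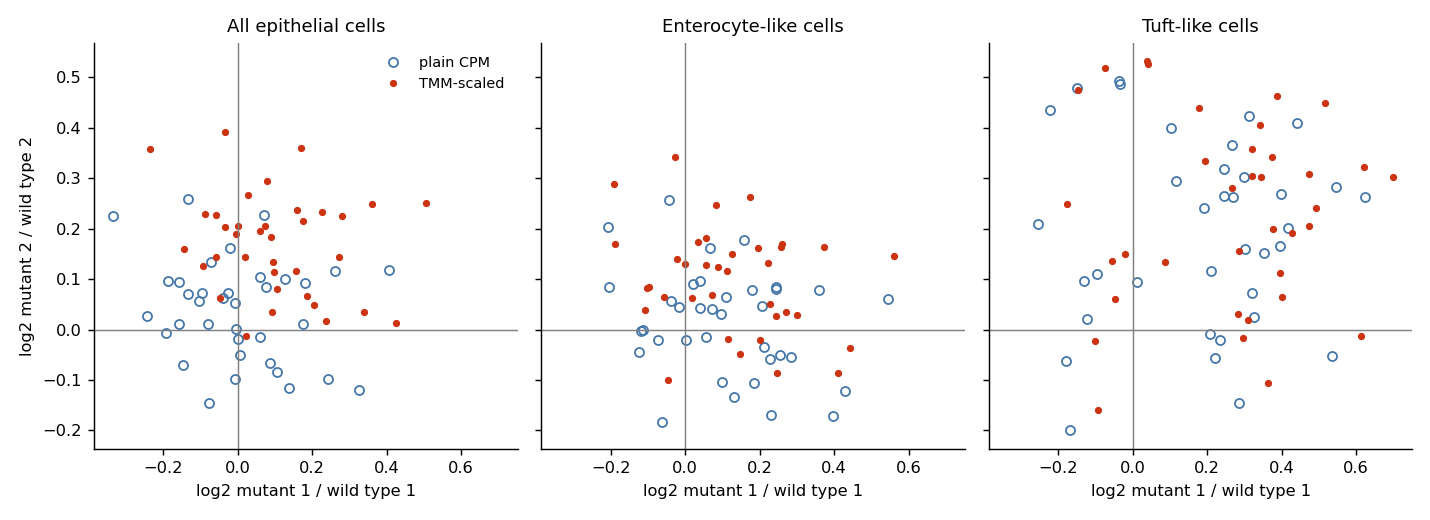
Log2 ratio of mutant to wild type in set A (horizontal) and set B (vertical) for each of 36 subunits in all epithelial, enterocyte-like and tuft-like cells, in plain CPM (open circles) and after TMM scaling (dots). On the TMM scale 25 of 36 subunits lie to the upper right of 0 in all epithelial cells, and 8 do in plain CPM.

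The CPM of both mutant libraries lay above both wild type libraries for 4 of 36 subunits in all epithelial cells and below them for none, where 2.73% and 20.4% of all genes did. In tuft-like cells 11 lay above and none below (8.95% and 14.7% of all genes), in enterocyte-like cells 7 and 0 (5.67% and 16.3%), and in enteroendocrine-like cells 9 and 1 (14% and 13.5%). Crypt cells had 4 and 2 (4.71% and 18.9%), goblet-like cells 5 and 0 (11.9% and 11.7%), and Paneth-like cells 0 and 0 (4.41% and 7.63%).

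Summed over the 37 genes, the subunits made up 9302, 9802, 9763 and 10144 CPM of all epithelial cells. Both mutant sums were above both wild type sums by a narrow margin, with a log2 ratio of 0.06 between the means (exact two-sided permutation test, p = 0.333, the smallest that this design allows). With mitochondrial and defensin UMIs left out of the total, mutant 1 (10918 CPM) lay below wild type 2 (11365 CPM). The nuclear UMIs per mt-Nd UMI were 0.862, 0.825, 0.851 and 0.866, with overlap of the genotypes. In Paneth-like cells set A gave 0.56 and set B -0.18 for the log2 ratio of the sums, in opposite directions. No comparison of sums or ratios, 36 in all over 9 groups of cells, could pass, and the smallest adjusted p was 1.

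The question whether the genotype effect differs between villus and crypt was put to enterocyte-like against crypt cells as an interaction in edgeR. None of 36 subunits was called, and 0% of the 14814 genes tested. At an unadjusted p under 0.05 there were 0 subunits and 175 genes in all. The interaction ran from -0.06 to 0.14 over the subunits, with a median of 0.05 on the log2 scale.

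The other genes of the pathway gave no call between genotypes either. In all epithelial cells complexes II, III, IV and V had median log2 ratios of 0.127, 0.117, 0.133 and 0.115, next to 0.115 for the subunits. The 19 assembly factors had a median of 0.05 there, and at an unadjusted p under 0.05 none passed. Timmdc1, an assembly factor of the membrane arm, had 44.6, 51.3, 39.8 and 37.5 CPM and a log2 ratio of 0.18 (SE 0.17). Ndufab1, the acyl carrier protein that is itself part of the complex, had 433, 430, 375 and 421 CPM and a log2 ratio of 0.20 (SE 0.18). The 7 mt-Nd mRNAs had a median of 0.06, from 0.36 in set A and -0.02 in set B. Among them mt-Nd1 had 3797, 4543, 4137 and 4915 CPM and a log2 ratio of 0.37 (SE 0.24), with both mutant libraries above both wild type libraries.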

How the data were processed

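Per the file headers, each deposited matrix gives raw UMI counts of genes in barcodes, which the authors made with Cell Ranger 7.0.0 (set A) or 7.1.0 (set B), on build mm10 per the submitters' processing notes. For intron counting, cell calling and removal of free RNA, the settings were not given in the sources used here. Members and lists were chosen with earlier results of these data known. A barcode needed 500 or more genes, 1000 or more UMIs and a mitochondrial share under 30%. The highest scrublet scores were left out as doublets at 0.8% per 1000 barcodes, a threshold set after a first look at the scores (246, 1364, 1059 and 1060 barcodes). Of 29387 cells kept, 151 in a lymphocyte cluster were removed.

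Clustering in scanpy 1.11.5 used 2000 variable genes without mitochondrial, ribosomal, sex-linked and pathway genes, 50 components, 15 neighbours and Leiden at resolution 1.0 (igraph 0.11.9). A cluster was named from at least 3 markers of 1 of 16 cell types among its 50 leading genes. UMIs were summed per class and library (at least 20 cells) and tested with edgeR 4.0.16 in R 4.3.3 (TMM, filterByExpr, quasi-likelihood test, Benjamini-Hochberg adjustment). The genotype fit leaves 2 residual degrees of freedom, and 1 with the set as a term. On simulated data the fit without the set term made no calls, and the false share of fits with a block was above the nominal rate. DESeq2 1.42.0 and the other alternatives are covered in the closing section. Every member may be named, but 1 is not reported here on its own, though it enters all counts, sums and medians. From other lists, up to 4 genes with the smallest p between genotypes, called genes among the 4 with the largest ratio in a class, and all mt-Nd genes may be named. Cluster medians use genes with at least 500 UMIs over all sums.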

Additional observations from a re-analysis of the deposited data

How the results depend on the processing

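Without a set term, no subunit was called between genotypes under any alternative, and with the set as a replicate block none was either, while the genes called in all rose from 0 to 21 in all epithelial, 53 in crypt, 4 in enterocyte-like, 38 in goblet-like, 1 in Paneth-like, 1 in tuft-like and 32 in enteroendocrine-like cells. DESeq2 called 6 genes in all epithelial cells and 0 elsewhere, no subunit among them. The sets share features, not stated animals or days, so the block is no stated pairing. Scaled to library size only, the genotype median of the members fell to 0.00051 in all epithelial cells (18 members higher, 18 lower) and 0.058 in enterocyte-like cells, and turned to -0.016 in crypt cells. Leaving out 1 library gave genotype medians of -0.012 to 0.29 in all epithelial, -0.068 to 0.23 in crypt, -0.082 to 0.29 in enterocyte-like, -0.057 to 0.23 in goblet-like, 0.043 to 0.24 in Paneth-like, 0.062 to 0.45 in tuft-like and -0.014 to 0.14 in enteroendocrine-like cells. Against stem-like cells, library size only gave 22 members called higher and a median of 0.26 in enterocyte-like, a median of 0.38 in cycling-like, 25 lower and -0.38 in goblet-like, 36 lower and -1.94 in Paneth-like, 6 lower and -0.078 in tuft-like, and -0.66 in enteroendocrine-like cells. DESeq2 size factors gave 13 lower in tuft-like cells and medians of -0.0041 in Paneth-like and -0.75 in enteroendocrine-like cells. Clustering on values centred within libraries gave 4 higher and 0.24 in cycling-like, 19 higher and 0.27 in enterocyte-like, 18 lower and -0.27 in Paneth-like cells, and medians of -0.25, -0.51 and -1.13 in goblet-like, tuft-like and enteroendocrine-like cells. Under 15% mitochondrial UMIs the medians were 0.40 in cycling-like, 0.57 in enterocyte-like and -1.06 in enteroendocrine-like cells, and under 50% -0.86 in the last. With doublets kept, goblet-like cells had 10 lower and a median of 0.039, in the other direction, and enteroendocrine-like cells -0.70. Without the filter on low counts, goblet-like cells had -0.023 and Paneth-like cells 7 lower. Without the low-UMI clusters enterocyte-like cells had 0.94. Leaving out 1 library gave 7 to 8 lower in Paneth-like cells with medians of -0.071 to 0.023, 11 to 19 lower in tuft-like cells, goblet-like medians of -0.075 to 0.0027 and enteroendocrine-like medians of -1.0 to -0.86. The log2 ratio of mutant to wild type in nuclear UMIs per mt-Nd UMI changed sign to 0.017 in all epithelial, 0.0075 in crypt and 0.0079 in goblet-like cells under 50% mitochondrial UMIs, and to -0.084 in enterocyte-like cells under 15%. Leaving out 1 library, it ran from -0.054 to 0.016 in all epithelial, -0.28 to 0.22 in crypt, -0.31 to 0.20 in stem-like, -0.32 to 0.21 in cycling-like, -0.10 to 0.16 in enterocyte-like, -0.12 to 0.090 in goblet-like, -0.16 to 0.30 in Paneth-like and -0.24 to 0.032 in enteroendocrine-like cells. The log2 ratio of the summed subunit level ran from -0.060 to 0.14 in crypt, -0.065 to 0.12 in stem-like, -0.12 to 0.13 in cycling-like, -0.0084 to 0.22 in enterocyte-like and -0.071 to 0.44 in Paneth-like cells. Fewer libraries, genes or cells entered some of these fits, and beyond that the cause was not tested. Counts of members called are given in this section without the share of all genes, which changed between settings as well. Of the values recomputed, 426 kept direction and size within the bounds set, 61 moved and 37 changed sign.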

Other observations

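Regulators of mitochondrial gene expression were mixed in enterocyte-like cells, where 3 of 11 were called higher and 6 lower (edgeR adjusted p under 0.05, median log2 ratio to stem-like cells -0.23), against 37% and 39.8% of all genes. Ppargc1a, the coactivator PGC-1alpha known for driving mitochondrial genes, was higher at 3.18 (SE 0.13) and Esrra, an oestrogen-related receptor it acts with, at 1.65 (SE 0.08). Pprc1, a related coactivator known from proliferating cells, was lower at -3.0 (SE 0.14), and Tfam, which packs and transcribes mtDNA, at -1.48 (SE 0.08). In enteroendocrine-like cells, as among the subunits, none was called higher, and 8 were called lower (median -0.73, against 33.6% of all genes called lower), among them Ppargc1b at -2.27 (SE 0.15) and Tfam at -2.14 (SE 0.11). In complex IV, Cox7a1, a tissue-specific subunit, had a ratio of 5.18 in enterocyte-like and 1.85 in enteroendocrine-like cells.

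Over the 28 sums of 7 classes in 4 libraries, the 10 of 3365 other genes (at least 50 CPM) whose log2 CPM was most like the mean of the members were Cox5b, Atp5j, Cox4i1, Cox5a, Mrps36, Dbi, Micos13, Cox7b, Mpc2 and Atp5h, with Pearson's r from 0.99 to 0.971. The sums of a class share library, depth and, in Paneth-like cells, the defensin share, and classes are not independent samples.

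Some members stood apart by set rather than by genotype, chosen here after their values were seen. In stem-like cells Ndufa3, a small membrane arm subunit, had 81.6, 81.4, 156 and 134 CPM, and Ndufc1 had 155, 172, 291 and 249 CPM, both higher in set B. Ndufa9 had 153, 148, 106 and 110 CPM and was lower in set B. The part of the sets' features in these gaps was not tested.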
